A study of Macaca fascicularis with 20 samples.

Results

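The miR-29 family was followed through 7 laser-cut regions of the fetal visual cortex of the crab-eating macaque. The family was taken by name (mir-29a, mir-29b and mir-29c in the files), which gives 3 of the 828 miRNA names found in both count tables. Each name has a 5p and a 3p arm, so the family comprises 6 of 1656 arms, and all 6 passed the filter on low counts that left 1139 arms to be tested. Of the 3 zones cut, 2 are germinal. Radial glia line the ventricle in the ventricular zone (VZ), and above it lies the outer subventricular zone (OSVZ), a progenitor layer much enlarged in primates. The third, the cortical plate (CP), receives the newborn neurons. VZ and CP were cut from areas 17 and 18, as was OSVZ, which in area 17 was split into an apical sublayer (OSVZ_17int) and a basal one (OSVZ_17ext). Set 1 came from embryonic day 80 and set 2 from embryonic day 79, with 1 library per region in each. VZ thus had 4 libraries, OSVZ 6 and CP 4. No sample carried a treatment or a genetic change according to the labels, and whether all regions of a set were cut from a single animal is not stated there. P-values therefore measure the spread between these libraries, which may be partly technical.

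A miRNA is cut from a hairpin whose left and right strands give the 5p and 3p arms. One arm is usually loaded into Argonaute and represses messages that match its seed, while the other is degraded. The 3p arms of miR-29a, miR-29b and miR-29c share their seed and are the arms usually described as active. They are known for repressing DNA methyltransferases and collagens, and for high levels in the mature brain, where they hold down pro-apoptotic BH3-only genes. One hairpin of miR-29b lies next to miR-29a and another lies next to miR-29c on a different chromosome, and both hairpins give the same 3p arm. The counts list miR-29b under a single name, so the 2 sources were not separated. How reads that fit several loci or several family members were counted is not given in the sources used here.

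Library totals ran from 3603478 to 9517217 counts, and levels are given as CPM, counts scaled to a common library size by TMM factors. The factors ran from 0.567 to 1.51, both in OSVZ_17int, for sets 1 and 2. Zone markers were checked first. Both arms of miR-92b, a miRNA of neural progenitors, summed to 25991 to 52634 CPM in VZ and 13697 to 25537 CPM in OSVZ, while CP held 523 to 1097 CPM. Conversely, miR-124, miR-137 and miR-138, the 3 of 4 neuron names that were matched, summed to 253 to 753 CPM in VZ and 2517 to 7581 CPM in CP. Within that sum miR-124-3p, the hallmark miRNA of neurons, was close to absent, at 0 to 19 counts in the CP libraries and 0 to 4 in the VZ libraries.

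The family's most abundant arm was miR-29a-3p, the main product of mir-29a, which was high in both germinal zones and low in the cortical plate. In VZ it stood at 477 and 348 CPM in area 17 (sets 1 and 2) and at 346 and 383 CPM in area 18. The 6 OSVZ libraries ran from 241 to 336 CPM with a median of 292 CPM. In CP it was at 57.1 and 58.3 CPM in area 17 and at 59.3 and 113 CPM in area 18. The lowest germinal library thus lay above the highest CP library, and the 4 VZ libraries lay above all 6 OSVZ libraries under TMM. The order of VZ and OSVZ libraries depends on the scaling. VZ_17 replicate 1 had 2217 of 6284048 counts and OSVZ_18 replicate 2 had 1746 of 3603478, which is the higher share. The mean was 388 ± 61.2 CPM over the 4 VZ libraries (± SD, as for all means here), 296 ± 33.9 CPM over the 6 OSVZ libraries and 71.9 ± 27.4 CPM over the 4 of CP. The ratio of means was 5.40 for VZ to CP and 4.11 for OSVZ to CP.

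On the log2 scale miR-29a-3p was 2.46 ± 0.42 (SE) higher in VZ than in CP (adjusted p = 6.59e-05) and 2.09 ± 0.40 higher in OSVZ than in CP (adjusted p = 0.000388), by edgeR's quasi-likelihood test with Benjamini-Hochberg adjustment over all 1139 arms. Both comparisons used the same 4 CP libraries. Within sets, the log2 ratio of means was 2.82 in set 1 and 2.09 in set 2 for VZ to CP, and 2.40 and 1.73 for OSVZ to CP. The arm passed in both comparisons under all 21 other settings tried, each with a single choice changed or libraries left out. It was the 1 arm of 6 called, at an adjusted p under 0.05, in each comparison. Among all tested arms edgeR called 7.37% in VZ against CP and 6.32% in OSVZ against CP, of which 2.63% were higher and 4.74% lower in the first, and 2.11% and 4.21% in the second. DESeq2 called 4 and 3 of the 6, all higher, where it called 14.8% and 10.5% of all arms. The difference of OSVZ from VZ did not pass (-0.37 ± 0.37, adjusted p = 0.734).

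The order of the region means of miR-29a-3p followed the layers. It ran from VZ_17 (412 ± 91.0 CPM, n = 2) and VZ_18 (364 ± 25.8) through OSVZ_18 (312 ± 20.9), OSVZ_17ext (288 ± 67.0) and OSVZ_17int (287 ± 1.12) to CP_18 (86.1 ± 37.9) and CP_17 (57.7 ± 0.897). The 2 VZ regions overlapped each other in range, as did OSVZ_18 with OSVZ_17ext and OSVZ_17ext with OSVZ_17int. Ranges were apart between VZ_18 and OSVZ_18, between OSVZ_17int and CP_18, and between CP_18 and CP_17. Each is a range of only 2 libraries under TMM, and no share over all arms was taken for regions. The gap between CP_17 and CP_18 was narrow, from 58.3 to 59.3 CPM, and the areas did not differ in CP by edgeR (adjusted p = 0.994).

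**Figure D1:**
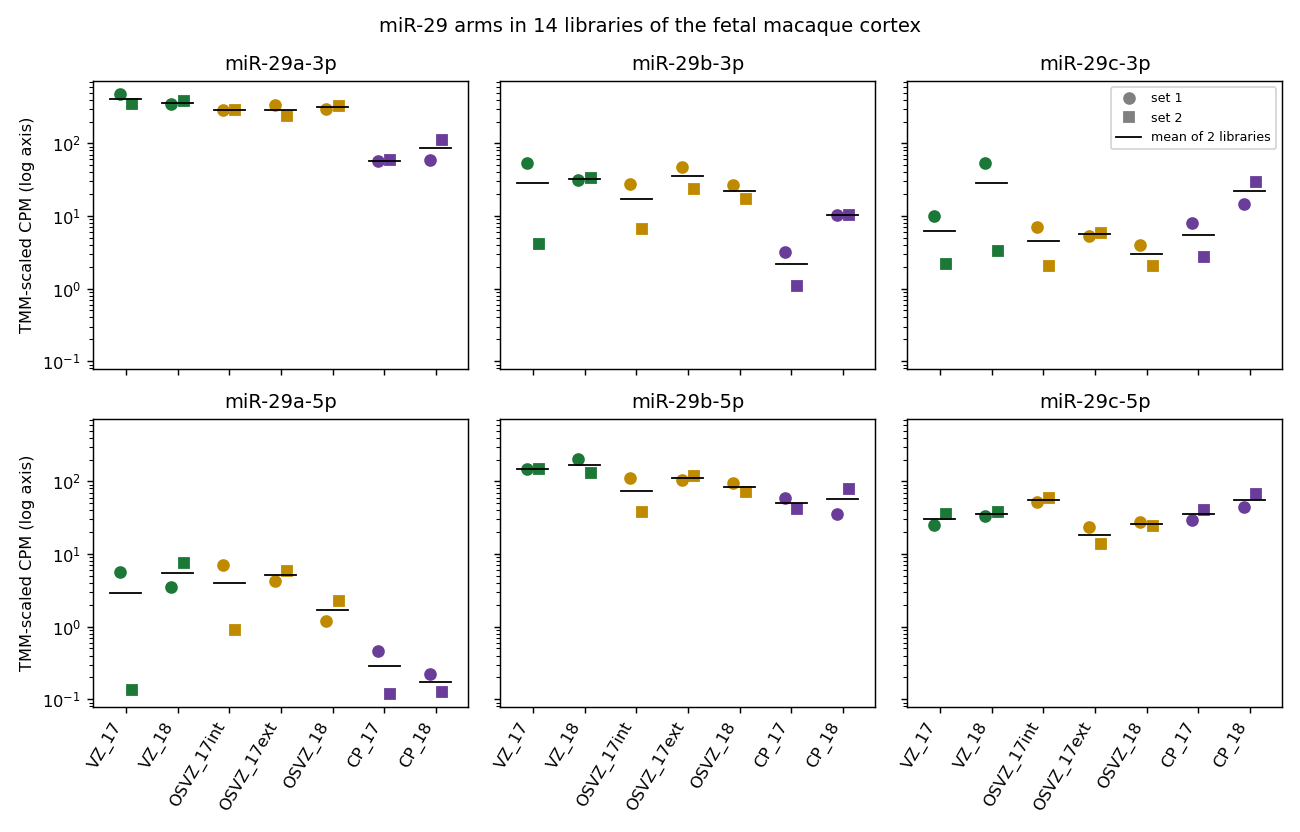
TMM-scaled CPM (log axis) of the 6 miR-29 arms in each library, by region, with circles for set 1, squares for set 2 and a black line at the mean of both. The germinal libraries of miR-29a-3p (green and gold) lie at 241 to 477 CPM, above all CP libraries (purple, 57.1 to 113 CPM), while those of miR-29c overlap between zones.

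The 5p arm of miR-29a, its passenger strand, was barely counted. It had 26, 1, 38 and 52 counts in the VZ libraries (VZ_17 sets 1 and 2, then VZ_18), 6 to 36 counts in the OSVZ libraries and 2, 1, 1 and 1 counts in CP. All OSVZ libraries and 3 of 4 VZ libraries lay above CP, with VZ_17 replicate 2 inside the CP range. Pooled over libraries and scaled, the ratio of VZ to CP was 19.8 (exact 95% interval 8.26 to 62.2, from 117 against 5 counts) and that of OSVZ to CP was 17.0 (7.09 to 53.2, from 126 against 5 counts). Such intervals, here and below, cover counting error only, since several reads can be copies of a single molecule. Against the spread between libraries it did not pass (adjusted p = 0.144 for VZ and 0.225 for OSVZ by edgeR).

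For mir-29b, the arm with more counts was the 5p arm, whose mean was highest in VZ, lower in OSVZ and lowest in CP. In VZ, miR-29b-5p was at 149 and 148 CPM in area 17 and at 205 and 129 CPM in area 18. The OSVZ libraries ran from 37.4 to 118 CPM with a median of 99.3 CPM. CP held 59.1 and 42.1 CPM in area 17 and 35.2 and 79.8 CPM in area 18. All VZ libraries lay above all OSVZ and all CP libraries under TMM, whereas OSVZ and CP overlapped. By library totals VZ and OSVZ overlap, as VZ_17 replicate 1 had 691 of 6284048 counts and OSVZ_17ext replicate 2 had 733 of 4583582. By region, VZ_18 (167 ± 53.6 CPM) and VZ_17 (148 ± 0.385) overlapped each other and lay apart from OSVZ_17ext (111 ± 10.5), which lay apart from OSVZ_18 (83.2 ± 16.9), while OSVZ_18, OSVZ_17int (74.0 ± 51.8), CP_18 (57.5 ± 31.5) and CP_17 (mean 50.6) overlapped in turn. These region ranges too are of only 2 libraries each, under TMM. Means in VZ, OSVZ and CP were 158 ± 32.8, 89.4 ± 30.2 and 54.1 ± 19.9 CPM (SD, n = 4, 6 and 4).

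The log2 difference of miR-29b-5p was 1.52 ± 0.49 for VZ against CP (adjusted p = 0.0557), 0.65 ± 0.46 for OSVZ against CP (adjusted p = 0.610) and -0.87 ± 0.45 for OSVZ against VZ (adjusted p = 0.484), none past the threshold in edgeR. The first value lay close to it and crossed it when only the scaling was changed, with adjusted p = 0.0193 under DESeq2 size factors and 0.0125 under library totals. It also crossed without VZ_17 replicate 1 (0.043), VZ_17 replicate 2 (0.0448), OSVZ_17int replicate 1 (0.0496), OSVZ_17int replicate 2 (0.026) or CP_18 replicate 2 (0.0367), and over all its settings ran from 0.000643 to 0.300.

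The 3p arm of miR-29b, the arm with the family's shared seed, was less abundant and less steady. It was at 53.1 and 4.06 CPM in VZ_17, 31.4 and 33.5 CPM in VZ_18, between 6.65 and 47.4 CPM with a median of 24.9 CPM in OSVZ, 3.22 and 1.07 CPM in CP_17 and 10.2 and 10.3 CPM in CP_18. Of the germinal libraries, VZ_17 replicate 2 and OSVZ_17int replicate 2 fell inside the CP range, and the other 8 lay above it. Means were 30.5 ± 20.2 CPM in VZ, 24.7 ± 13.5 CPM in OSVZ and 6.19 ± 4.75 CPM in CP.

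The log2 difference of miR-29b-3p was 2.56 ± 0.87 for VZ against CP (adjusted p = 0.0744) and 2.24 ± 0.83 for OSVZ against CP (adjusted p = 0.118, both edgeR). The value for VZ against CP moved most with single VZ libraries, and also with CP ones. Without single CP libraries it ran from 2.25 (CP_18 replicate 1) to 2.98 (CP_18 replicate 2). It was 1.55 (adjusted p = 0.305) without VZ_17 replicate 1 and 2.04 (0.207) without VZ_18 replicate 2, but 3.16 (0.00854) without VZ_17 replicate 2, which had 30 counts, and 3.04 (0.0293) without VZ_18 replicate 1. Without VZ_17 replicate 2 the value for OSVZ against CP had an adjusted p of 0.0383. Over the alternatives adjusted p ran from 0.000248 to 0.305 for VZ against CP. Erythroid miRNAs, as a sign of blood, summed to 128 CPM in VZ_17 replicate 2 and 334 CPM in VZ_18 replicate 1, against 55.9 and 60.1 CPM in the other VZ libraries. Their part in the result was not tested.

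For mir-29c, no higher level in the germinal zones was detected. Its 3p arm was at 10.1 and 2.17 CPM in VZ_17, 53.0 and 3.34 CPM in VZ_18, 2.06 to 7.08 CPM with a median of 4.68 CPM in OSVZ, 8.05 and 2.74 CPM in CP_17 and 14.4 and 29.2 CPM in CP_18. The highest value was that of VZ_18 replicate 1, the library with the most erythroid miRNA. The VZ and CP libraries overlapped, as did OSVZ and CP, and the log2 ratio of VZ to CP was 1.49 in set 1 and -2.54 in set 2. Differences were -0.22 ± 1.08 for VZ against CP (adjusted p = 0.935), which turned positive under both other scalings, and -1.60 ± 0.98 for OSVZ against CP (adjusted p = 0.508). Without VZ_18 replicate 1 the first was -0.95 (adjusted p = 0.756).

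The 5p arm of miR-29c was its larger one, at 24.9 to 37.7 CPM in VZ, 13.6 to 59.3 CPM in OSVZ and 29.5 to 67.6 CPM in CP. Means were 33.0 ± 5.67, 33.4 ± 18.2 and 45.4 ± 16.1 CPM. No zone comparison passed (-0.42 ± 0.62, -0.60 ± 0.58 and -0.18 ± 0.58 for VZ against CP, OSVZ against CP and OSVZ against VZ, with adjusted p of 0.735, 0.730 and 0.948 by edgeR).

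**Figure D2:**
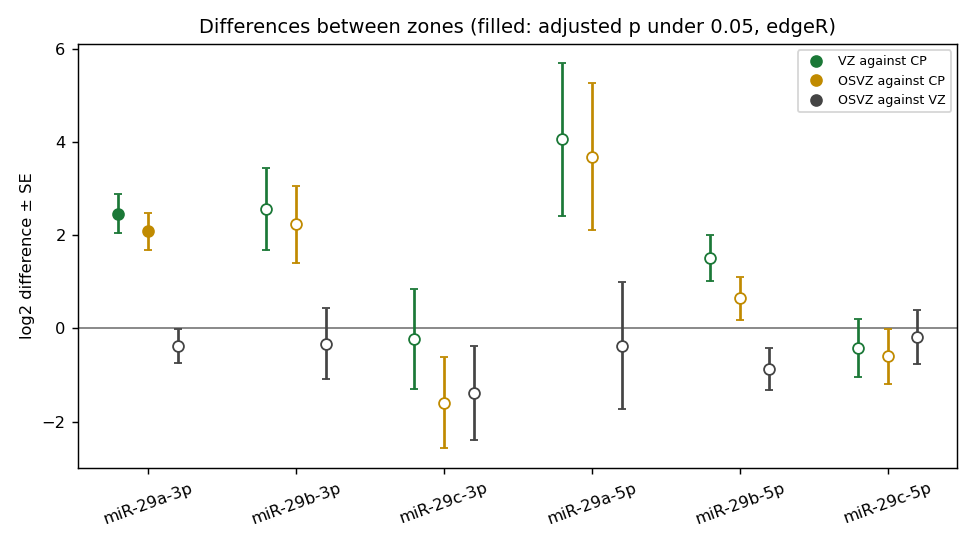
Log2 differences with SE for the 6 arms in the 3 comparisons between zones, by edgeR, with filled points for adjusted p under 0.05. The arms of miR-29a and miR-29b lie above 0 against CP, and the filled points are those of miR-29a-3p, at 2.46 and 2.09, whereas both arms of miR-29c lie below 0, of which VZ against CP moved above 0 under library totals for both and under DESeq2 size factors for the 3p arm.

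Counted together, 4 of 6 arms had a log2 difference above 0 and 2 below 0 against CP, both for VZ (median 1.99, where the median over all 1139 arms was -0.22) and for OSVZ (median 1.37, against -0.20 for all arms). Against VZ, all 6 arms lay below 0 in OSVZ under each of the 3 scalings (median -0.37 under TMM). The median over all arms was 0.12 under TMM, 0.019 under DESeq2 size factors and -0.12 under library totals. With single libraries left out, the sign changed in some cases for miR-29a-5p, miR-29b-3p and miR-29c-5p. Of the 6 arms 0 passed with edgeR, which called 0.0878% of all arms (1 arm, higher in OSVZ). DESeq2 also called 0, where it called 2.46% of all arms, and 0 had an unadjusted p under 0.05 with edgeR, as against 9.92% of all arms. CPM ranges lay apart in the higher direction for 2 of 6 arms in VZ against CP, miR-29a-3p and miR-29b-5p, as for 3.07% of all arms, and for 2 of 6 in OSVZ against CP, both arms of miR-29a, as for 2.72%. They lay apart in the lower direction for 2 of 6 arms in OSVZ against VZ, miR-29a-3p and miR-29b-5p, as for 0.878%. All these ranges are under TMM, and by library totals both of the latter arms overlap between OSVZ and VZ. In the opposite direction 0 of 6 lay apart in each, as for 10.1%, 5.71% and 1.23% of all arms in the same order. The 6 arms come in pairs from shared hairpins and are not independent of each other. The placing of all arms moved with the scaling, from a median of -0.22 under TMM to 0.023 under DESeq2 size factors and 0.21 under library totals for VZ against CP, and from -0.20 to -0.045 and 0.035 for OSVZ against CP. With it the calls over all arms went from 30 higher and 54 lower to 34 and 42, and to 37 and 32, for VZ against CP. For OSVZ against CP they went from 24 and 48 to 35 and 44, and to 38 and 34.

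The make-up of the family was then described by zone. Of the family's counts, miR-29a-3p took 61.7% ± 6.88 in VZ (SD, n = 4), 65.7% ± 6.62 in OSVZ (n = 6) and 37.6% ± 1.86 in CP (n = 4). The share of miR-29c-5p was 5.37% ± 1.47 in VZ, 7.53% ± 4.48 in OSVZ and 24.1% ± 4.27 in CP. That of miR-29b-5p was 25.1% ± 4.68, 19.7% ± 6.55 and 28.7% ± 6.69. The 3 3p arms added up to 436 ± 77.0 CPM in VZ, 325 ± 40.8 CPM in OSVZ and 91.7 ± 41.5 CPM in CP. For pieces of tissue, fewer cells that hold a miRNA and less of it per cell cannot be told apart.

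Ratios between members need no scaling and were compared by two-sided exact permutation tests over libraries, 18 in all, with Benjamini-Hochberg adjustment. The log2 ratio of miR-29a-3p to miR-29c-3p was 6.19 ± 0.83 in OSVZ and 2.79 ± 1.13 in CP, with ranges apart (exact permutation p = 0.00952, the smallest this design can give, adjusted 0.0857). In VZ it was 5.59 ± 2.06, overlapping CP (exact permutation p = 0.0857, adjusted 0.309). The ratio of miR-29b-3p to miR-29c-3p was 2.40 ± 0.62 in OSVZ and -1.15 ± 0.45 in CP (exact permutation p = 0.00952, adjusted 0.0857) and 1.45 ± 1.78 in VZ (exact permutation p = 0.0571, adjusted 0.300). By contrast the ratio of miR-29b-3p to miR-29a-3p was -4.13 ± 1.52 in VZ, -3.79 ± 0.92 in OSVZ and -3.94 ± 1.33 in CP, and differed by -0.19 between VZ and CP (exact permutation p = 0.771, adjusted 0.857). None of the 18 passed after adjustment, and with 4 against 4 libraries the smallest p possible for VZ against CP was 0.0286. These tests permuted libraries without regard to set. Permuted within sets, the ratios of miR-29a-3p and of miR-29b-3p to miR-29c-3p had an adjusted p of 0.18 each in OSVZ against CP.

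The 3p arm prevailed for mir-29a and the 5p arm for mir-29b and, in all but 1 library, mir-29c. The 3p arm held 97.6% to 99.96% of the counts of miR-29a, and was the larger arm in 14 of 14 libraries. For miR-29b it held 2.48% to 31.4%, and the 5p arm was the larger in 14 of 14. For miR-29c the 3p arm held 3.37% to 30.1% in 13 libraries and 61.3% (Wilson 95% interval 58.1% to 64.4%) in VZ_18 replicate 1. Over the 300 names with at least 1000 counts in all libraries together, the 5p arm was the larger for 56.7%. The part that shared or near-identical 3p reads play in this was not tested.

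**Figure D3:**
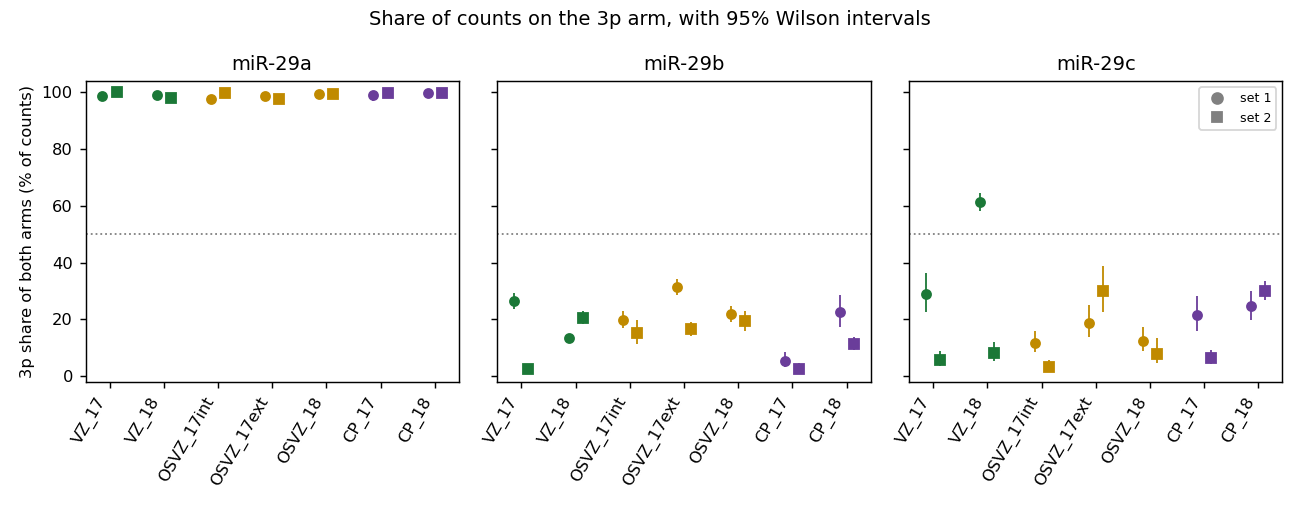
Share of counts on the 3p arm in each library, in percent of both arms, with 95% Wilson intervals, by region, circles for set 1 and squares for set 2. The shares of miR-29a lie near the top in all 14 libraries, those of miR-29b at 2.48% to 31.4%, and 1 library of miR-29c lies above the dotted line at equal use, at 61.3%.

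No difference in 3p share between zones passed the test. It was 15.7% ± 10.2 in VZ, 20.7% ± 5.78 in OSVZ and 10.4% ± 8.87 in CP for miR-29b, and 26.0% ± 25.7, 14.1% ± 9.34 and 20.6% ± 10.2 for miR-29c. As log2 ratios of 3p to 5p, the largest difference between zones was that of miR-29b for OSVZ against CP, at 1.55 (exact permutation p = 0.0667, adjusted 0.300). For miR-29a, whose 5p counts were few, OSVZ and CP differed by -1.23 (exact permutation p = 0.162, adjusted 0.486).

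Areas 17 and 18 of the visual cortex come to differ in neuron number, and the arms were also compared between them and between the OSVZ sublayers. With edgeR and with DESeq2 0 of 6 arms passed in any of these comparisons, where edgeR called 0.176% of all arms in VZ between areas and 0% in OSVZ, in CP and between sublayers. DESeq2 called 1.93% of all arms in VZ, 0% in OSVZ, 0.263% in CP and 0.176% between sublayers. An unadjusted p under 0.05 was found with edgeR for 1 arm in CP, where 3.16% of all arms had one, and for 0 arms in VZ, in OSVZ and between sublayers, where 7.9%, 2.55% and 4.04% had one. That arm was miR-29b-3p, at 2.15 ± 1.52 CPM in area 17 and 10.2 ± 0.0669 CPM in area 18 (n = 2 each), a log2 difference of -2.56 ± 1.25 (adjusted p = 0.994). Also in CP, miR-29c-3p was at 5.40 ± 3.76 CPM in area 17 and 21.8 ± 10.5 CPM in area 18 (-2.54 ± 1.57, adjusted p = 0.994). In both sets CP of area 18 was above that of area 17 for these 2 arms, miR-29a-3p and miR-29c-5p. For miR-29a-3p the gap in set 1 was small, at 59.3 against 57.1 CPM. The median over all 1139 arms lay on the same side, at -0.21. How many of all arms did so in both sets was not counted.

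For miR-29a-3p the difference between areas was 0.18 ± 0.56 in VZ, -0.12 ± 0.48 in OSVZ and -0.57 ± 0.57 in CP (adjusted p of 0.954, 1 and 0.994 by edgeR). The area difference averaged over both germinal zones was 0.61 ± 0.67 above that in CP (adjusted p = 1). Between the OSVZ sublayers miR-29a-3p differed by -0.01 ± 0.56 (adjusted p = 1). The arm with the smallest p there was miR-29c-5p, at 52.8 and 59.3 CPM in the inner sublayer and 23.2 and 13.6 CPM in the outer one (1.58 ± 0.91, adjusted p = 0.938). Its inner libraries were above its outer ones in both sets, and how many of all arms were so was not counted.

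Of the other arms, 374 had a mean CPM of 10 or more, and those with the pattern most like that of miR-29a-3p over the 14 libraries were found by Pearson correlation of log2 CPM centred on each set. They were miR-887-3p (r = 0.965), miR-92b-3p (r = 0.946), miR-152-3p (r = 0.941), miR-28-3p (r = 0.910) and miR-92b-5p (r = 0.909). The libraries fall into germinal and CP groups, so these values describe mainly that step, and all arms share the depth of each library. The correlation takes no account of the size of a difference. In VZ against CP miR-887-3p, miR-92b-3p and miR-92b-5p differed by 4.36, 5.64 and 5.58 (log2), more than the 2.46 of miR-29a-3p. For miR-152-3p and miR-28-3p it was less, at 2.11 and 1.61. Of the 5, miR-152-3p had zone means of 351 ± 122, 265 ± 126 and 81.0 ± 21.2 CPM in VZ, OSVZ and CP, and miR-28-3p of 379, 326 and 122 CPM. The first is a member of the miR-148 family, known like miR-29 for repressing a DNA methyltransferase. The most opposite arms were miR-935-3p (r = -0.954), miR-7-3p (r = -0.936) and the neuronal miR-139-5p (r = -0.918). Within the family, r with miR-29a-3p was 0.792 for miR-29b-3p, 0.725 for miR-29b-5p, -0.19 for miR-29c-3p and -0.28 for miR-29c-5p.

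**Figure D4:**
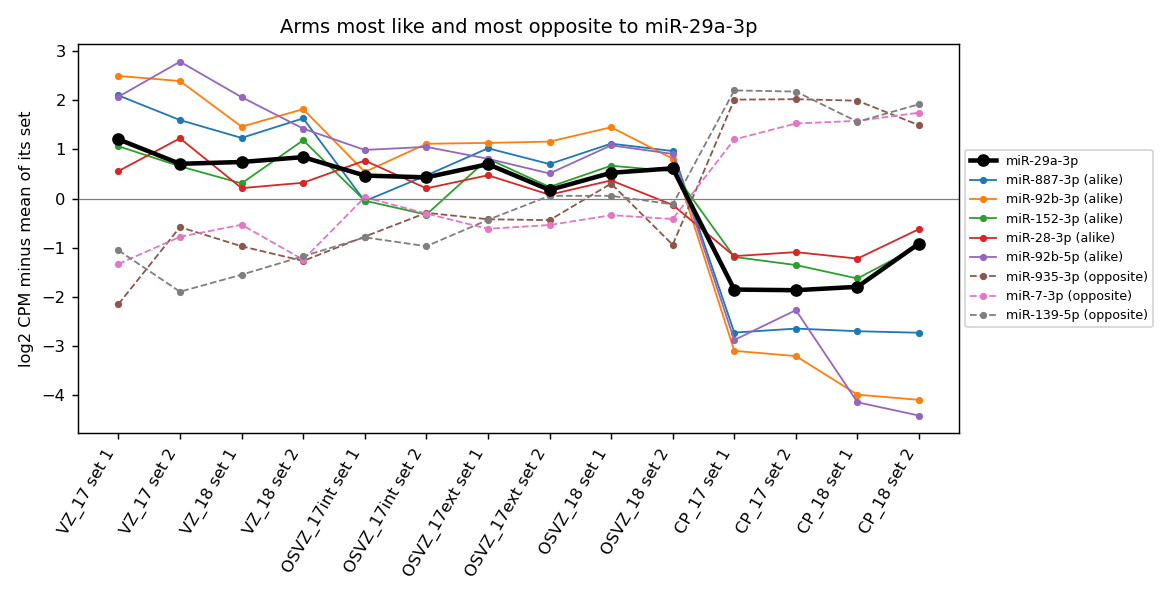
Log2 CPM minus the mean of its set in 14 libraries, for miR-29a-3p (black), the 5 arms most like it (solid) and the 3 most opposite (dashed). The black line stays above 0 in the 10 germinal libraries and below 0 in the 4 CP libraries, with the CP_18 library of set 2 the highest of those.

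Other miRNAs that share a known role with miR-29 were taken as lists, chosen with earlier results of these data known. Of all tested arms, edgeR called 2.63% higher and 4.74% lower in VZ against CP. In OSVZ against CP it called 2.11% and 4.21%. Among the 16 arms of 8 miRNAs described as repressors of DNA methyltransferases, 1 was higher in VZ than in CP (miR-152-3p, 2.11 ± 0.42), 2 were lower (miR-342-3p, -1.67 ± 0.37, and miR-140-5p, -1.90 ± 0.47) and 13 did not pass, with a median of -0.56. In OSVZ against CP, miR-152-3p was higher (1.67 ± 0.40) and the other 15 did not pass, with a median of -0.40. miR-148a-3p and miR-148b-3p, of the same family as miR-152, were at -1.01 ± 0.90 and -0.55 ± 0.52 in VZ against CP and did not pass. Of 32 arms of miRNAs repressed by the transcription factor MYC, as miR-29 is known to be, 1 was lower in each comparison (let-7g-5p, -1.99 ± 0.43 in VZ and -1.67 ± 0.39 in OSVZ) and 31 did not pass, with medians of 0.22 and 0.26. DESeq2 called 6 of the 32 in each, beside its 14.8% and 10.5% of all arms. With edgeR an unadjusted p under 0.05 was found for 6 of the 32 in VZ, 5 of them higher, and 8 in OSVZ, 6 of them higher. Over all arms 21.3% and 15.5% had one, in either direction.

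Glia-enriched miRNAs, a group in which miR-29 is often placed since astrocytes hold much of it, had 2 of 18 arms higher in VZ than in CP (miR-223-3p, 2.29 ± 0.52, better known from myeloid cells, and miR-23a-3p, 1.45 ± 0.37) and 16 that did not pass, with a median of -0.37. In OSVZ against CP 0 of 18 passed with edgeR. Of all arms it called 2.63% higher in VZ and 2.11% in OSVZ. An unadjusted p under 0.05 was found for 7 of the 18 in VZ and 5 in OSVZ against CP, beside 21.3% and 15.5% of all arms. Of these, 6 in VZ and 4 in OSVZ were higher than in CP. DESeq2 called 6 and 3 of the 18, beside 14.8% and 10.5% of all arms. Of 17 neuronal arms, 8 were lower in VZ and 10 in OSVZ than in CP, where edgeR called 4.74% and 4.21% of all arms lower. Of the 17, 0 were higher, also at an unadjusted p under 0.05. The median of these neuronal arms was -1.89 in VZ and -2.24 in OSVZ.

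Markers of other cells were summed beside miR-29a-3p. The 8 myeloid and lymphoid arms summed to 739 to 996 CPM in VZ, 587 to 1188 CPM in OSVZ and 441 to 492.6 CPM in CP, so this sum too was higher in all germinal libraries than in CP. Of its arms miR-142-3p, from the defining miRNA of blood cells, was at 0 in all CP libraries and in the 5 germinal libraries of set 2, and at 17 to 70 counts in those of set 1. The 10 mural and mesenchymal arms summed to 969 to 1957, 1419 to 4937 and 733 to 1175 CPM, where VZ overlapped CP and OSVZ lay above it. Its arms also went both ways. Of the 8 tested, edgeR called 1 higher and 1 lower in VZ against CP (median -0.78). In OSVZ against CP it called 2 higher and 1 lower (median 0.32). Over all arms it called 7.37% and 6.32%. The 2 endothelial arms overlapped, at 980 to 2794, 1434 to 5288 and 1547 to 4504 CPM, as did the 6 erythroid arms at 55.9 to 334, 18.9 to 103 and 27.5 to 126 CPM. The sum of the 4 oligodendrocyte arms was lower in germinal libraries, at 115 to 317, 97.5 to 158 and 398 to 766 CPM, but its arms were not of 1 direction. In VZ against CP edgeR called miR-219-3p higher (2.80 ± 0.72) and both arms of miR-338 lower, at -2.37 ± 0.56 (3p) and -2.41 ± 0.54 (5p). The sum of the 4 choroid plexus arms was also lower, at 209 to 1953, 166 to 957 and 4946 to 7253 CPM, carried by miR-204-5p (-3.84 ± 0.46 in VZ against CP), whereas miR-211-5p was at 1.46 ± 0.68 and did not pass (adjusted p = 0.213). The part of these cells in the difference of miR-29a-3p was not tested.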

How the data were processed

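The authors deposited small RNA read counts per miRNA name and arm, from SOLiD libraries of laser-microdissected tissue, per the labels' protocols. The aligner, genome build and miRNA annotation are not given in the sources used here. Columns were assigned to 14 of 20 labelled samples by region, spelling and the regions a table holds. Left out were 12 columns, of 6 libraries, whose names fit no label, so 6 labelled samples are not analysed here. Names in both tables (828 of 861 and 868) were kept. Arms were filtered with filterByExpr by region (1139 of 1656 kept), scaled with TMM and fitted with edgeR 4.0.16 in R 4.3.3 as 7 region means plus the replicate set as a block, since the labels tie a set to 1 embryonic day (6 residual and 28.1 prior degrees of freedom). Areas weighed equally in each zone, as did the area 17 sublayers of OSVZ, and calls were made at an adjusted p under 0.05. Deviations from region means correlated between libraries of a set with a median r of 0.309 (0.0351 to 0.564 over 21 region pairs, 20 of them above 0.1). Ratios had 0.5 added to both counts. DESeq2 1.42.0, other scalings, other filters, no block and left-out libraries were tried as alternatives. The fit and the permutation test were tested on simulated data. The members, the lists and the rule for named arms (all 6 miR-29 arms, the 5 arms most like and 3 least like miR-29a-3p, and up to 4 called arms per list) were chosen with earlier results of these data known.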

Additional observations from a re-analysis of the deposited data

Results flagged for a closer look

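In CP, miR-29a-3p was at 113 CPM in CP_18 replicate 2, far from the other 3 CP libraries at 57.1 to 59.3 CPM. That library was also the highest of CP for miR-29b-5p (79.8 CPM), miR-29c-3p (29.2 CPM) and miR-29c-5p (67.6 CPM). For miR-29b-3p it was so narrowly (10.3 CPM), and for miR-29a-5p it was not. In VZ, miR-29c-3p was at 53.0 CPM in VZ_18 replicate 1, far from the other 3 VZ libraries at 2.17 to 10.1 CPM. The same VZ library had 61.3% of its miR-29c counts on the 3p arm and 334 CPM of erythroid miRNA, the highest of the 14 libraries, and the part of blood in its miR-29c-3p level was not tested. These were 2 of 27 groups examined for a library lying far from the others, and chance alone gives about 1 in 20. Without CP_18 replicate 2, miR-29a-3p differed from CP by 2.75 in VZ and 2.38 in OSVZ (log2), both called by edgeR.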

How the results depend on the processing

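The call of miR-29a-3p against CP held in both zones under all 21 alternatives, at log2 differences of 2.24 to 2.94 in VZ and 1.86 to 2.38 in OSVZ. The number of miR-29 arms called in VZ against CP, 1, became 3 with DESeq2 size factors, 2 with library totals, 3 when arms under 10 CPM were dropped, 4 with DESeq2, 3 without VZ_18 replicate 1 and VZ_17 replicate 2 together (chosen after seeing the data), and 1 to 3 with single libraries left out. In OSVZ against CP, 1 became 2 with arms of at least 10 CPM, 3 with DESeq2, 2 without both VZ libraries, and 1 to 2 with single libraries left out (2 without VZ_17 replicate 2). Without the replicate block the count stayed at 1 in both, with miR-29a-3p at 2.46 and 2.09, and no call of a member changed. No ratio was called in the main tests, and none was called when libraries were permuted within sets. Too few such arrangements exist for VZ against CP to give a permutation p under 0.05, so this shows nothing about stability there. The added arms were miR-29b-3p, miR-29b-5p and, with DESeq2 or without both VZ libraries (adjusted p = 0.0288 in VZ against CP), miR-29a-5p. Counts over all 1139 arms in VZ against CP went from 84 to 76 with DESeq2 size factors, 69 with library totals and 169 with DESeq2. They were 53 without the block and 80 without both VZ libraries. With single libraries left out they were 53 (without CP_17 replicate 2) to 120 (without VZ_17 replicate 1). With arms under 10 CPM dropped, which left miR-29a-5p untested, 93 of 379 arms were called. In OSVZ against CP the counts over all arms went from 72 to 120 with DESeq2 and 125 without both VZ libraries. They were 44 without OSVZ_18 replicate 2, 45 without CP_17 replicate 1, 48 without OSVZ_18 replicate 1 and 99 without VZ_17 replicate 2. With arms under 10 CPM dropped, 91 of 379 were called.

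Differences that changed sign were none of them called, and the cause was not tested. In VZ against CP, miR-29c-3p was 0.072 with DESeq2 size factors, 0.46 with library totals, 0.19 when arms under 10 CPM were dropped, 0.28 without the block, 0.074 with DESeq2 and -0.95 to 0.59 with single libraries left out, and miR-29c-5p was 0.061 with library totals. Between sublayers, miR-29a-3p was 0.12 with arms of at least 10 CPM. Between areas in VZ, miR-29a-3p was -0.23 with library totals, and without both VZ libraries miR-29b-5p was 0.19 and miR-29c-3p 1.17. Between areas in OSVZ, miR-29b-3p was -0.032 with DESeq2 size factors, -0.24 with library totals, -0.043 without a filter and -0.028 with DESeq2, and miR-29b-5p was -0.14 with library totals. The area difference of miR-29b-5p in germinal zones against CP was -0.10 with library totals.

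With single libraries left out, ranges that spanned 0 in OSVZ against VZ were -1.05 to 1.56 (miR-29a-5p), -0.86 to 0.79 (miR-29b-3p) and -0.32 to 0.046 (miR-29c-5p). Between sublayers they were -0.29 to 0.32 (miR-29a-3p), -2.33 to 0.12 (miR-29a-5p) and -1.39 to 0.31 (miR-29c-3p). Between areas they were -0.20 to 0.56 (miR-29a-3p), -2.74 to 0.33 (miR-29b-3p), -0.37 to 0.24 (miR-29b-5p) and -2.90 to 0.34 (miR-29c-3p) in VZ, -0.28 to 0.027 (miR-29a-3p), -0.32 to 0.17 (miR-29b-3p), -0.41 to 0.31 (miR-29b-5p) and -0.057 to 0.54 (miR-29c-5p) in OSVZ, and -1.02 to 0.012 (miR-29a-3p) and -0.92 to 0.75 (miR-29b-5p) in CP. The area difference of miR-29b-5p in germinal zones against CP ran from -0.75 to 0.91. For log2 ratios they were -0.36 to 1.17 (miR-29a-3p to miR-29c-3p, OSVZ against VZ), and for miR-29b-3p to miR-29a-3p -0.77 to 0.56 (VZ against CP), -0.43 to 0.63 (OSVZ against CP) and -0.41 to 0.67 (OSVZ against VZ). For 3p to 5p they were -1.21 to 0.48 (miR-29a, OSVZ against VZ), -0.79 to 0.77 (miR-29c, VZ against CP) and -1.51 to 0.052 (miR-29c, OSVZ against VZ).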
